A study of Mus musculus with 8 samples.

Results

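CD44, a surface receptor for hyaluronan, was followed as protein and as RNA together with 3 further genes of the hyaluronan system: Has2, Hyal2 and Lyve1. The members were taken by name, as 4 gene rows of 28014 and 1 antibody tag row of 6 in a table of single-cell counts. They were described across all 10 named cell types, in 15168 cells.

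The cells were CD31+ cells sorted from the aorta-gonad-mesonephros region (AGM) of E10.5 mouse embryos and profiled by CITE-seq, which reads RNA and antibody-bound surface protein from the same cell. There were 5 WT libraries of strain C57BL/6 and 3 libraries of strain Meis1-flox/VE-Cre, whose genotype is labelled Meis1-knockout, each made from several pooled embryos. In the latter both alleles of the homeobox gene Meis1 carry loxP sites around exon 8, and Cre is driven by the VE-cadherin promoter, so that recombination is directed to endothelium and to the cells that descend from it. The comparisons within WT ask how the members differ between cell types, from arterial endothelium to blood. Those between genotypes ask whether the members differ where Meis1 was targeted. The authors' cell type names were used: arterial endothelial cells (aEC), cells on the way to hemogenic endothelium (pre-HE), a cluster in transition from endothelium to blood (EHT), erythro-myeloid progenitors (EMP), Myeloid cells, Megakaryocytes and the endothelial clusters vEC_1 to vEC_4. Because these names were drawn from the RNA of the same cells, RNA differences between cell types are descriptions of the clusters and not independent tests. The CD44 tag took no part in naming them.

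Hyaluronan is a long, unbranched sugar polymer of the extracellular matrix, spun out through the plasma membrane by hyaluronan synthases such as Has2 and cleaved by hyaluronidases such as Hyal2. CD44 binds it on blood cells, and Lyve1 is a related receptor of lymphatic and some venous endothelium and of tissue macrophages. In the heart of the embryo Has2 is needed for the hyaluronan-rich matrix of the cushions, where endothelial cells leave their layer.

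The members lie on 4 chromosomes of build GRCm38.p6, the build behind the mouse RefSeq tables used here: Cd44 at chr2:102811141-102901669, Lyve1 at chr7:110850607-110862953, Hyal2 at chr9:107567873-107572778 and Has2 at chr15:56665627-56694546. Cd44 had the larger rise of the 2 members that could be tested between aEC and pre-HE, Cd44 and Hyal2. The 250 bases before the transcript start of its RefSeq promoter entry are therefore shown, at chr2:102901666-102901915, minus strand, 5′ to 3′. That start lies just inside the outer bound of the gene, so that the last bases of the window fall within the gene. Capitals mark a match to the GATA motif AGATAA, which begins 233 bases before this start.

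Cd44 promoter: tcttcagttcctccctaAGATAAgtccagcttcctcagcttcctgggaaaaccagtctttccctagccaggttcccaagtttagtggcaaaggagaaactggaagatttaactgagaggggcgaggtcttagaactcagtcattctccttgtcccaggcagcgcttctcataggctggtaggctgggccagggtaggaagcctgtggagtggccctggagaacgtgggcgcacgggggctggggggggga

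Letters were searched on both strands for 3 motifs of blood and endothelial factors. AGATAA is held by 9.99% of 32851 mouse promoter windows of this length. The RUNX motif TGTGGT, held by 14.05% of the windows, and the MEIS motif TGACAG, held by 15.9%, are not in the Cd44 window, which says only that these letters are not there. The window of Hyal2 held none of the 3 motifs, and those of Has2 and Lyve1 were not in the table.

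The libraries held 651 to 2598 cells and 20484881 to 79429129 UMIs (unique molecular identifiers, which count molecules). Median UMIs per cell were 26572 to 28553 in WT 1 to 4, 12720.5 in WT 5 and 9611.5 to 14895 in the Meis1-flox/VE-Cre libraries. The CD44 tag was counted in 8859 cells, those of WT 5 and Meis1-flox/VE-Cre 1 to 3. In the 6309 cells of WT 1 to 4 it was treated as missing. The cell names of WT 5 begin with Mf, unlike those of the other WT libraries. Its label is WT, which is followed here. Among 15135 distinct barcodes, 33 occurred in more than 1 library. The RNA was read from the 3′ end of transcripts, so the counts do not read exon 8 of Meis1. Meis1 stood at 56.7 to 77.0 CPM (counts per M, a gene's counts relative to all UMIs of the summed cells) in EMP of WT and at 20.9 to 36.4 in EMP of Meis1-flox/VE-Cre, and in aEC it was low in both, at 0.881 to 1.48 and 1.17 to 2.15. Strain, alleles, Cre and, for WT 1 to 4, depth differ together with the genotype, and their parts cannot be told apart. Replicates are pools of embryos, and differences between sums of cells cannot tell fewer expressing cells from less RNA per cell.

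Cd44 RNA was nearly absent from endothelium and high from pre-HE onward. In EHT it stood at 74.7, 69.5, 76.1, 54.3 and 88.5 CPM in WT 1 to 5, with a mean of 72.6 ± 12.4 (SD, n = 5). In Myeloid cells it stood at 74.9, 60.6, 72.0, 53.3 and 81.3 CPM, a range that overlaps that of EHT. EMP followed at 61.4, 49.2, 51.8, 48.4 and 59.3 CPM, and pre-HE at 57.1, 56.0, 38.9, 57.7 and 38.6 CPM. In the order of WT means, EHT and Myeloid, and likewise EMP and pre-HE, did not differ beyond their SDs. Megakaryocytes were lower, at 11.7 ± 8.40 CPM (SD, n = 5), with all libraries below the lowest pre-HE library. Of these, WT 3 had 0 counts in 5 Megakaryocytes, which allows up to 13.1 CPM. In aEC the mean was 1.14 ± 0.778 CPM (SD, n = 5), and the vEC clusters had WT means from 0.799 in vEC_3 to 1.49 in vEC_4.

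**Figure D1:**
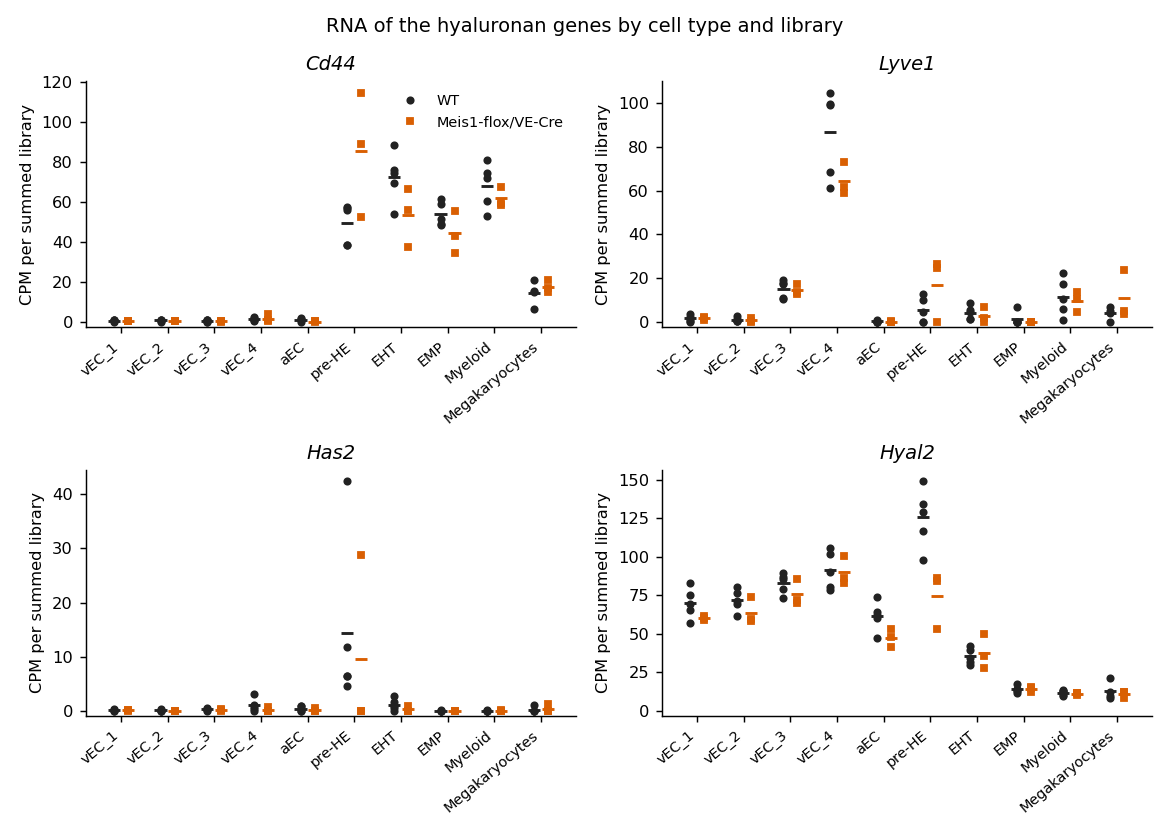
RNA of Cd44, Lyve1, Has2 and Hyal2 in CPM of the summed cells (vertical axes, from 0) for each cell type (horizontal axes), with a point for each library that has at least 10 cells of the type, black circles for WT and orange squares for Meis1-flox/VE-Cre, and a horizontal line at the group mean. Cd44 lies near 0 in the endothelial clusters and between 34.9 and 115 CPM in every pre-HE, EHT, EMP and Myeloid library, Lyve1 is highest in vEC_4, Has2 in pre-HE of WT 1, and Hyal2 in pre-HE of WT.

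Between aEC and pre-HE, Cd44 rose by 5.03 on the log2 scale (SE 0.31) in 5 of 5 WT libraries, with a Benjamini-Hochberg adjusted p of 2.1e-17 (edgeR, quasi-likelihood, over all genes). The rise rests on 128 counts in 171 pre-HE cells against 25 counts in 888 aEC cells, and 42.1% of all 8143 genes tested passed the threshold of 0.1 at this step. From pre-HE to EHT the difference was 0.36 (SE 0.18, adjusted p = 0.093 by edgeR), higher in 4 of 5 libraries, where 61.6% of genes passed. Without WT 1, 2, 3 or 5 its adjusted p was 0.128 to 0.25, after thinning each cell to 5000 UMIs the difference was 0.15 with an adjusted p of 0.661, and in the Meis1-flox/VE-Cre libraries it was -0.62 with an adjusted p of 0.127. Cd44 in EMP was lower than in EHT by 0.30 (SE 0.087, adjusted p = 0.0092 by edgeR) in 5 of 5 WT libraries, where 56.4% passed. DESeq2 gave an adjusted p of 0.115. Myeloid cells had 0.36 more than EMP (SE 0.072, adjusted p = 0.0017 by edgeR, 5 of 5 libraries, 61.1% of genes called), and Megakaryocytes 1.75 less on the log2 scale than EMP (log2 change -1.75, SE 0.20, adjusted p = 9.5e-05, 4 of 4 libraries lower, 58.9% called). Between aEC and all vEC cells Cd44 differed by 0.54 (SE 0.35, adjusted p = 0.198), which did not pass where 59.7% of genes did.

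Counted by cell, Cd44 was read at similar rates in the 4 cell types with high sums. After thinning each cell to 5000 UMIs, a Cd44 UMI was found in 27.7% of EHT, 26.1% of Myeloid, 21.8% of pre-HE and 21.5% of EMP cells of WT (means over 5 libraries). In aEC, which serve as the level that free RNA could give, the share was 0.455%. Without thinning the shares were 82.5% in EHT, 82.0% in EMP, 77.4% in Myeloid, 45.4% in pre-HE and 1.68% in aEC, where pre-HE cells had fewer UMIs than the other blood-forming cells.

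Lyve1 RNA was highest in 1 of the vEC clusters. In vEC_4 it stood at 98.8, 68.5, 105, 61.1 and 99.3 CPM in WT 1 to 5, and in vEC_3 at 17.5, 11.1, 17.9, 10.5 and 19.4 CPM. The ranges of these clusters lie apart, and vEC_1, vEC_2 and aEC followed at 3.57 CPM or less in every WT library. Against the other vEC clusters, vEC_4 was higher by 3.85 on the log2 scale (SE 0.089, edgeR adjusted p = 1.5e-21, 85.2 against 6.01 CPM), with 52.9% of all genes called there. For vEC_3 the difference from the other vEC cells was -0.03 with an adjusted p of 0.799 by edgeR, since those cells include vEC_4 (-0.51 after thinning, adjusted p = 0.015, and 0.38 in the Meis1-flox/VE-Cre libraries, adjusted p = 0.027), where 44% of genes were called, and vEC_1 and vEC_2 had log2 differences of -3.65 (SE 0.16) and -4.28 (SE 0.15). Prox1, a master factor of lymphatic endothelium, was among the 5 genes most like Lyve1 over 49 WT sums in 10 cell types (Pearson's r of log2(CPM + 1) 0.705, after 0.809 for Rnf141 and 0.738 for Ednrb).

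Outside endothelium Lyve1 was read in few cells. Myeloid cells had 22.4, 17.7, 1.12, 10.6 and 6.17 CPM in WT 1 to 5, which exceeded EMP by 3.86 on the log2 scale (SE 0.82, edgeR adjusted p = 0.0023) in 4 of 5 libraries. In WT 1 the 285 Lyve1 counts of Myeloid cells lay in 35 of 282 cells, with 73 in 1 cell, and in WT 2 the 282 counts lay in 30 cells, with 83 in 1 cell. In EMP the level was 0 or 0.233 CPM except for WT 3 at 6.78 CPM, whose 14 counts lay in 1 cell. The other 4 WT libraries held 1 Lyve1 count in EMP, so that the fitted difference without WT 3, 7.48, depends on the prior count and is no bound. In pre-HE, WT 1, 2 and 4 had 12.9, 4.67 and 10.3 CPM and WT 3 and 5 had 0 counts, which allow up to 19.4 and 19.3 CPM.

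Has2, the only hyaluronan synthase among the members, was low and was read mainly in pre-HE. There it stood at 42.4, 4.67, 6.48, 11.9 and 6.44 CPM in WT 1 to 5, from 23, 1, 1, 15 and 1 counts in 11, 1, 1, 10 and 1 cells. WT 1 was far above the others, and the mean was 14.4 ± 15.9 CPM (SD, n = 5). In EHT the mean was 1.18 ± 1.06 CPM, and no WT library had more than 3.22 CPM in any cell type but pre-HE. The Meis1-flox/VE-Cre libraries had 0, 28.7 and 0 CPM in pre-HE, from 0, 6 and 0 counts, and the counts of 0 allow up to 14.8 CPM in library 1 and 26.5 in library 3. After thinning, 5.76% of WT pre-HE cells had a Has2 UMI and at most 0.493% of the cells of any other type. Has2 was too low for the filter on low counts in every comparison of cell types, of genotypes and of high-tag with low-tag cells. It was tested in 1 interaction term, that of the step from aEC to pre-HE with the genotype (0.53, SE 1.32, edgeR adjusted p = 1.00). The genes most like it over the WT sums were Isl1 (Pearson's r 0.883), Gja5 (0.871) and Tmem100 (0.859), of which Gja5 is an arterial connexin.

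Hyal2 was high in endothelium and low in blood, and its WT mean was highest in pre-HE. The WT libraries of vEC_4, at 78.2 to 105 CPM, overlapped those of pre-HE. In Meis1-flox/VE-Cre the mean was 74.4 CPM in pre-HE and 89.9 in vEC_4. Hyal2 stood at 62.4, 73.7, 60.3, 64.4 and 47.2 CPM in aEC of WT 1 to 5. In pre-HE it stood at 149, 98.0, 117, 134 and 129 CPM, with no overlap with aEC. In EHT it was at 29.9, 34.4, 39.3, 41.8 and 31.5 CPM, and in EMP at 13.9, 13.05, 14.0, 17.7 and 11.5 CPM. Each of these 4 cell types lay apart from the next in the order aEC, pre-HE, EHT and EMP. In the order of WT means pre-HE, at 125.4 ± 19.3 CPM, was followed by vEC_4, at 91.2 ± 12.1, vEC_3, vEC_2, vEC_1 and aEC (61.6 ± 9.54), then EHT (35.4 ± 5.08), EMP (14.0 ± 2.30), Megakaryocytes (13.03 ± 5.18) and Myeloid cells (11.8 ± 1.74, all SD, n = 5), and neighbours among the last 3 did not differ beyond their SDs.

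Hyal2 rose by 0.96 on the log2 scale from aEC to pre-HE (SE 0.14, edgeR adjusted p = 5.8e-07) and fell by 1.82 from pre-HE to EHT (SE 0.16, adjusted p = 1.8e-11) and by 1.22 from EHT to EMP (SE 0.12, adjusted p = 1.2e-06), each in 5 of 5 WT libraries. In the Meis1-flox/VE-Cre libraries the step from aEC to pre-HE was 0.61 and did not pass (edgeR adjusted p = 0.135). In WT, Hyal2 did not pass the test against EMP, with differences of -0.21 (SE 0.15, adjusted p = 0.283) in Myeloid cells and 0.00 (SE 0.32, adjusted p = 0.998) in Megakaryocytes. Among the vEC clusters it was 0.25 higher in vEC_4 (SE 0.053, edgeR adjusted p = 0.00032) and 0.11 higher in vEC_3, and it fell by 0.13 in vEC_2 and by 0.11 in vEC_1, each against the other vEC cells (36.9% to 53.1% of genes called). With DESeq2 the calls in vEC_1, vEC_2 and vEC_3 were lost (adjusted p = 0.147, 0.159 and 0.139), as they were without the library block, and those in vEC_1 and vEC_3 also after thinning and without WT 4. Over the 10 comparisons of cell types Cd44 was called in 5 of the 9 where it could be tested, Hyal2 in 8 of 10 and Lyve1 in 5 of 6, where 36.9% to 61.6% of all genes were called. Icam2, an adhesion molecule of endothelium, was most like Hyal2 over the WT sums (Pearson's r 0.966), and Slc9a3r1 (0.952), H2-K1 (0.944) and Ptpre (0.931) were most like Cd44.

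A list of 57 names of the hyaluronan and CD44 system, with the 4 member genes among them (synthesis, breakdown, receptors, matrix partners, linkers between CD44 and actin, ligands and proteases), was read as a whole. Of 22 tested between aEC and pre-HE, 9 rose and 3 fell, with a median log2 change of 0.15 against 0.01 for all genes, of which 42.1% were called. Tmem2, a cell-surface hyaluronidase, rose by 2.02 on the log2 scale to 302 CPM, the linkers Ezr, Rdx and Msn rose by 2.01, 1.29 and 0.35, and the link proteins Hapln1 and Hapln3 fell by 1.87 and 1.84. From pre-HE to EHT, 4 of 21 rose and 14 fell, with a median of -0.72 against 0.04, where 61.6% of all genes were called. The falls included Tmem2 (-3.78), the clearance receptor Stab1 (-3.06), the membrane protease Mmp14 (-2.95) and 4 of the 4 tested genes of sugar precursor synthesis, among them Ugdh (-0.67), which makes the glucuronic acid donor. Hmmr, a hyaluronan-binding protein of the mitotic spindle, rose by 1.39. Of 22 tested between EHT and EMP, 2 rose and 9 fell, led by Mmp14 (-4.67), where 56.4% of all genes were called. In Myeloid cells against EMP, 16 of 27 rose and 3 fell (61.1% of all genes called), among the rises Tlr4 (4.33), Stab1 (3.79) and Tlr2 (2.64). In vEC_4, the cluster high in Lyve1 and Hyal2, 15 of 30 rose and 4 fell (52.9% of all genes called), among the rises Tmem2 (1.13) and the endothelial clearance receptors Stab2 (1.03) and Stab1 (0.87).

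Between genotypes none of the members passed the test in any cell type, by edgeR or by DESeq2. Cd44 was tested in 5 cell types, Hyal2 in 10 and Lyve1 in 4, with smallest adjusted p-values of 0.469, 0.410 and 0.551, and 4 of these tests had an unadjusted p under 0.05. The share of all genes called was 0.489% in pre-HE, 0.127% in EHT, 4.74% in EMP, 3.26% in Myeloid cells, 0.206% in Megakaryocytes, 0.0187% in vEC_2 and 0% in aEC, vEC_1, vEC_3 and vEC_4, where 895 to 1485 genes had an unadjusted p under 0.05. In pre-HE, Cd44 stood at 89.1, 52.6 and 115 CPM in Meis1-flox/VE-Cre 1 to 3, against 38.6 to 57.7 in WT (difference 0.64, SE 0.30, edgeR unadjusted p = 0.0472, adjusted p = 0.679), from 29, 33 and 15 cells. The groups overlap in library 2. In EHT it stood at 56.1, 66.7 and 37.5 CPM against 54.3 to 88.5 in WT (difference -0.42, SE 0.20, edgeR unadjusted p = 0.0490, adjusted p = 0.522).

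Hyal2 in pre-HE stood at 84.1, 86.1 and 53.0 CPM in Meis1-flox/VE-Cre 1 to 3, all below the lowest WT library at 98.0 (difference -0.70, SE 0.25, edgeR unadjusted p = 0.0110, adjusted p = 0.459). Groups lay apart in this way for 5.05% of all genes tested in pre-HE. In aEC Hyal2 stood at 53.0, 48.2 and 41.4 CPM against 47.2 to 73.7 in WT (difference -0.36, SE 0.15, edgeR unadjusted p = 0.0269, adjusted p = 0.432), and the difference from WT 5 alone was -0.01. Lyve1 in vEC_4 stood at 58.9, 61.7 and 72.9 CPM against 61.1 to 105 in WT (difference -0.36, SE 0.18, edgeR adjusted p = 0.551). The steps were also compared between genotypes by interaction terms, where 0 of 30 tests of the members passed (smallest adjusted p 0.722 by edgeR). The share of all genes that passed was 0.0527% from aEC to pre-HE, 0.402% from EHT to EMP, 0.867% and 0.273% for Myeloid cells and Megakaryocytes against EMP, 0.00861% in vEC_1, 0.0341% in vEC_3 and 0% in the other 3. The change of Cd44 from pre-HE to EHT was lower by 0.95 on the log2 scale in Meis1-flox/VE-Cre (difference -0.95, SE 0.37, edgeR unadjusted p = 0.0144, adjusted p = 1.00), where 0.0374% of genes passed. Of the wider list, Stab1 was higher in EMP (difference 1.06, edgeR adjusted p = 0.092, 1 of 22 tested), and in Myeloid cells Mmp9, a protease that can dock on CD44, was among the genes that passed, and was higher (3.06, adjusted p = 0.013), of 31 tested.

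The CD44 tag, which counts antibody bound to the protein at the surface, separated blood from endothelium in all 4 libraries that carried it. In aEC the mean was 5.37 tag counts per cell in WT 5 and 4.57, 5.02 and 1.98 in Meis1-flox/VE-Cre 1 to 3. It was 39.6, 53.4, 48.0 and 23.5 in pre-HE in the same order of libraries, and 201, 165, 163 and 57.4 in EHT. Tag counts of Meis1-flox/VE-Cre 3 were the lowest in every cell type. EMP had 291, 226, 189.9 and 49.3 tag counts per cell and Myeloid cells 415, 389.7, 358 and 117, the highest of the 10 cell types in each library. Megakaryocytes had 101.8, 103, 78.1 and 27.9. The vEC clusters stayed at the aEC level, with means of 1.99 to 8.18. No EHT, EMP, Myeloid or Megakaryocyte cell had a tag count of 0, whereas 3.70% to 28.9% of aEC cells did.

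**Figure D2:**
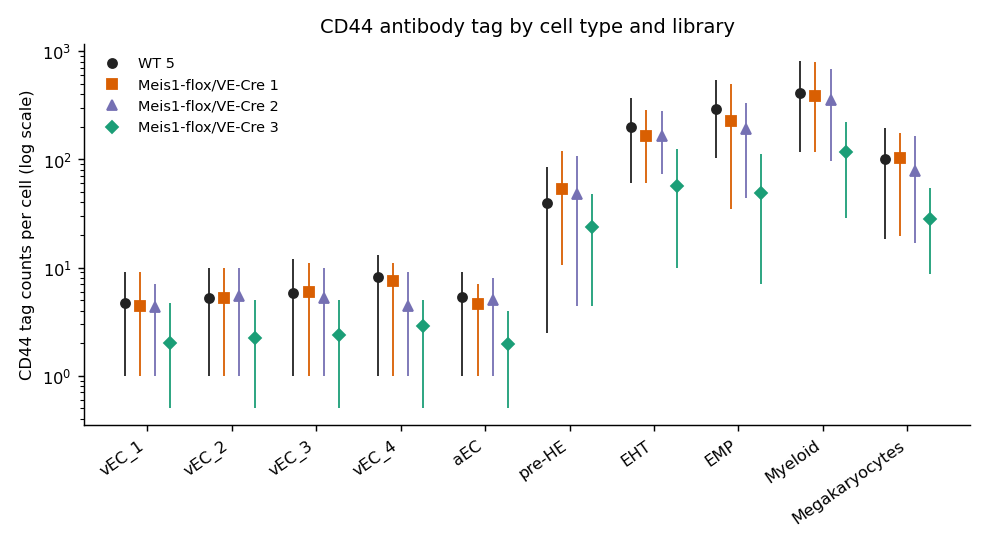
CD44 tag counts per cell (vertical axis, log scale) for each cell type, with points at the mean of each of the 4 libraries and bars from the 10th to the 90th percentile of its cells, where a 10th percentile of 0 is drawn at 0.5. The means rise from 1.98 to 5.37 in aEC over 23.5 to 53.4 in pre-HE to 57.4 to 201 in EHT.

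Within libraries the mean tag was 9.95-fold higher in pre-HE than in aEC (mean log2 ratio 3.31, SD 0.32, n = 4, 2.88 in WT 5) and 3.38-fold higher in EHT than in pre-HE (1.76, SD 0.44, n = 4, 2.34 in WT 5), in 4 of 4 libraries each. Myeloid cells had 1.82-fold more tag than EMP (log2 ratio 0.87, SD 0.31, 4 of 4), and Megakaryocytes had less than EMP in 4 of 4 libraries (-1.19, SD 0.29). For each of these the two-sided exact sign-flip permutation p was 0.125 (0.208 adjusted over 10 comparisons), the smallest that 4 libraries allow, so the design cannot reach 0.05. Between EHT and EMP the log2 ratio was 0.25 (SD 0.34, 3 of 4 libraries higher in EMP, exact permutation p = 0.375), and Meis1-flox/VE-Cre 3 went the other way, with 57.4 in EHT and 49.3 in EMP. Counted per RNA UMI of the cell, the ratio was -0.26. As a share of the Myeloid mean of the same library, pre-HE reached 9.54% to 20.04%, EHT 42.4% to 48.8% and EMP 42.0% to 70.0%.

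With RNA in CPM, tag and RNA did not rank the cell types alike. On that scale pre-HE had Cd44 RNA of the same order as EMP, and it had little tag. For each CPM of Cd44, pre-HE carried 1.03, 0.599, 0.912 and 0.205 tag counts per cell in WT 5 and Meis1-flox/VE-Cre 1 to 3. EHT carried 2.27, 2.94, 2.45 and 1.53, EMP 4.90, 4.07, 4.39 and 1.41, and Myeloid cells 5.11, 5.77, 6.12 and 1.97. Over these libraries the ratio was 3.84-fold lower in pre-HE than in EHT (mean log2 difference -1.94, SD 0.81, lower in 4 of 4 libraries, exact permutation p = 0.125, 0.188 adjusted over 6 comparisons). This mean mixes the genotypes. In WT 5, the only WT library with a tag, the log2 difference was -1.14, the smallest gap of the 4. Leaving out each library in turn gave -2.21 to -1.62.

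The size of the gap and the order of the cell types depended on the scale, because cells of these types differ in total RNA. The median of UMIs per cell was 5978 to 8851.5 in pre-HE, 9277 to 15874 in EHT and 14516 to 21434 in EMP. For each Cd44 UMI per cell, pre-HE carried 106, 86.1, 144 and 27.2 tag counts and EHT 145, 202, 260 and 85.0. The ratio was 2.07-fold lower in pre-HE (mean log2 difference -1.05, SD 0.51, lower in 4 of 4, -0.46 in WT 5). On this scale, which was chosen after the data had been seen, EHT differed from EMP by -0.07 and from Myeloid cells by -0.13, where the CPM scale gave -0.58 and -0.96. Megakaryocytes, low in Cd44 RNA, had 4.7998, 6.91, 4.49 and 1.33 tag counts per CPM, close to EMP (log2 difference 0.17).

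**Figure D3:**
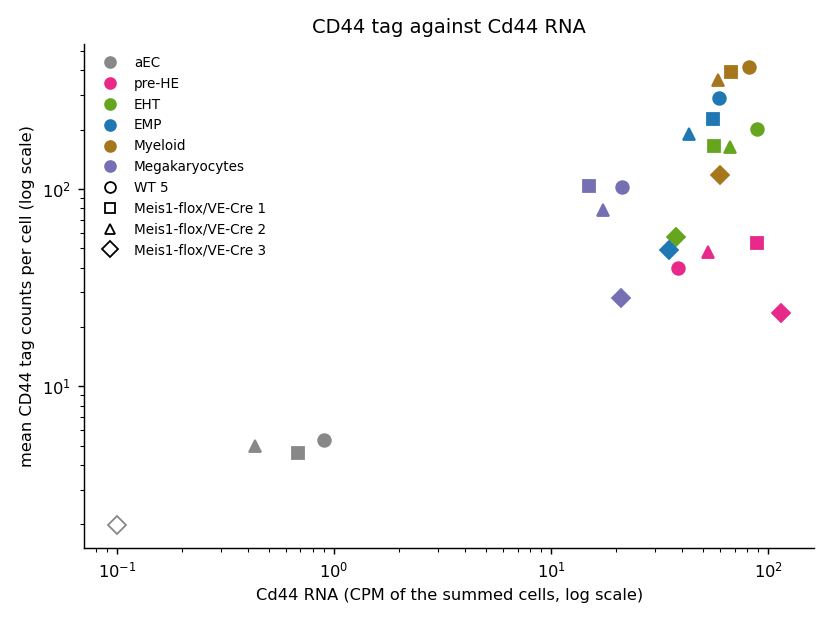
Mean CD44 tag counts per cell (vertical axis, log scale) against Cd44 RNA in CPM of the summed cells (horizontal axis, log scale), with a color for each cell type and a symbol for each library, where aEC of Meis1-flox/VE-Cre 3, with 0 Cd44 counts, is an open symbol drawn at 0.1. The pre-HE symbols, at 23.5 to 53.4 tag counts, lie below the EHT and EMP symbols of the same library.

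Among cells of 1 type, more Cd44 RNA went with more tag in some types and not in others. After thinning to 5000 UMIs, EMP cells with a Cd44 UMI had mean tags of 377, 331, 220.1 and 71.0 in WT 5 and Meis1-flox/VE-Cre 1 to 3, against 264, 196, 182 and 45.6 in EMP cells with none. The log2 ratio was 0.54 (SD 0.21, higher in 4 of 4 libraries, exact permutation p = 0.125). In EHT the means were 201, 169.5, 138 and 51.9 with a UMI and 201, 165.7, 174 and 59.0 without (log2 ratio -0.12, SD 0.17, higher in 2 of 4, exact permutation p = 0.5). Myeloid cells had a ratio of 0.25 (SD 0.18, 4 of 4, exact permutation p = 0.125), and pre-HE had 0.47 (SD 0.12) in the 3 libraries with enough cells, where the smallest exact permutation p is 0.25. Spearman's correlation of the tag with Cd44 counts over cells, given as a description with the library and cell depth shared, used counts thinned to 5000 UMIs. Its medians over libraries were 0.257 in EMP, 0.276 in pre-HE, 0.083 in Myeloid cells and -0.002 in EHT. Without thinning it was 0.254 to 0.544 in EMP, 0.156 to 0.48 in pre-HE and 0.352 to 0.544 in Myeloid cells. In EHT it was then 0.16, 0.13, -0.26 and 0.24 in WT 5 and Meis1-flox/VE-Cre 1 to 3. The tag's correlation with the total UMIs of the cell, which were not thinned, had medians of 0.517, 0.255, 0.646 and 0.445 in the same order of cell types. These were larger than the medians for thinned Cd44 counts except in pre-HE, which sets unlike measures side by side. Without thinning, Cd44 in EMP had 0.544, 0.478, 0.254 and 0.438 in WT 5 and Meis1-flox/VE-Cre 1 to 3. Total UMIs had 0.471, 0.466, 0.570 and 0.562 there.

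To describe the spread of CD44 within EHT, the cells of each library were divided at its median tag, which was 173.5 in WT 5 and 148, 154 and 52.5 in Meis1-flox/VE-Cre 1 to 3. The 139 cells above it (high-tag) were compared with the 141 at or below it (low-tag), and 54 of 5157 genes were called (1.05%), 16 higher and 38 lower in high-tag cells. DESeq2 called 2. Cd44 RNA itself stood at 82.8, 64.2, 48.6 and 40.2 CPM in high-tag and at 97.2, 45.9, 85.9 and 34.1 CPM in low-tag EHT cells, with no direction shared by the libraries (difference -0.09, SE 0.21, edgeR adjusted p = 0.958). Hyal2 was lower in high-tag EHT cells in 4 of 4 libraries, though the test was not passed (-0.24, SE 0.26, edgeR adjusted p = 0.867).

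The genes that were lower in high-tag EHT cells included endothelial ones. Nrp1, a VEGF co-receptor, fell by 1.24 (SE 0.23, 47.4 against 106 CPM, edgeR adjusted p = 0.0086), Igfbp2 fell by 1.18, S100a16 by 1.16, Id3, a target of BMP signaling, by 1.14 (124 against 265 CPM) and Slc18a2 by 1.14. Of 8 endothelial markers tested, 2 fell, the tight junction gene Cldn5 (-0.96) and the adhesion gene Esam (-0.67), and the median of the 8 was -0.56 against 0.00 for all genes. The largest rises with one direction in every library were Metrn (1.08), the granule protease Prtn3 (0.71), Cd47 (0.60), Hist1h1b (0.56) and Smagp (0.54). In Meis1-flox/VE-Cre 2 Prtn3 was nearly level, at 137.6 against 137.5 CPM. None of 5 hematopoietic, 8 hemogenic or 6 cell division markers passed, with a median of 0.19 for the hematopoietic ones. High-tag EHT cells were deeper in every library, with medians of 15768 against 11247 UMIs in WT 5 and 15448 against 11586, 10068 against 8330.5 and 18723.5 against 15044 in Meis1-flox/VE-Cre 1 to 3, and the part of cell size in these differences was not tested.

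In EMP the same division gave 406 called genes of 7309 (5.55%), 260 higher and 146 lower, with 116 called by DESeq2, in 233 high-tag against 235 low-tag cells. Here Cd44 RNA followed the tag. It stood at 78.9, 69.2, 49.7 and 44.6 CPM in high-tag and 31.4, 36.3, 34.9 and 20.4 CPM in low-tag EMP cells of WT 5 and Meis1-flox/VE-Cre 1 to 3, so that the groups did not overlap (difference 0.98, SE 0.16, edgeR adjusted p = 0.0018, with 0.057 by DESeq2). Without thinning, a Cd44 UMI was found in 150 of 233 high-tag and 83 of 235 low-tag EMP cells, and in 80 of 139 high-tag and 78 of 141 low-tag EHT cells. Hyal2 differed by -0.34 (edgeR adjusted p = 0.723).

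**Figure D4:**
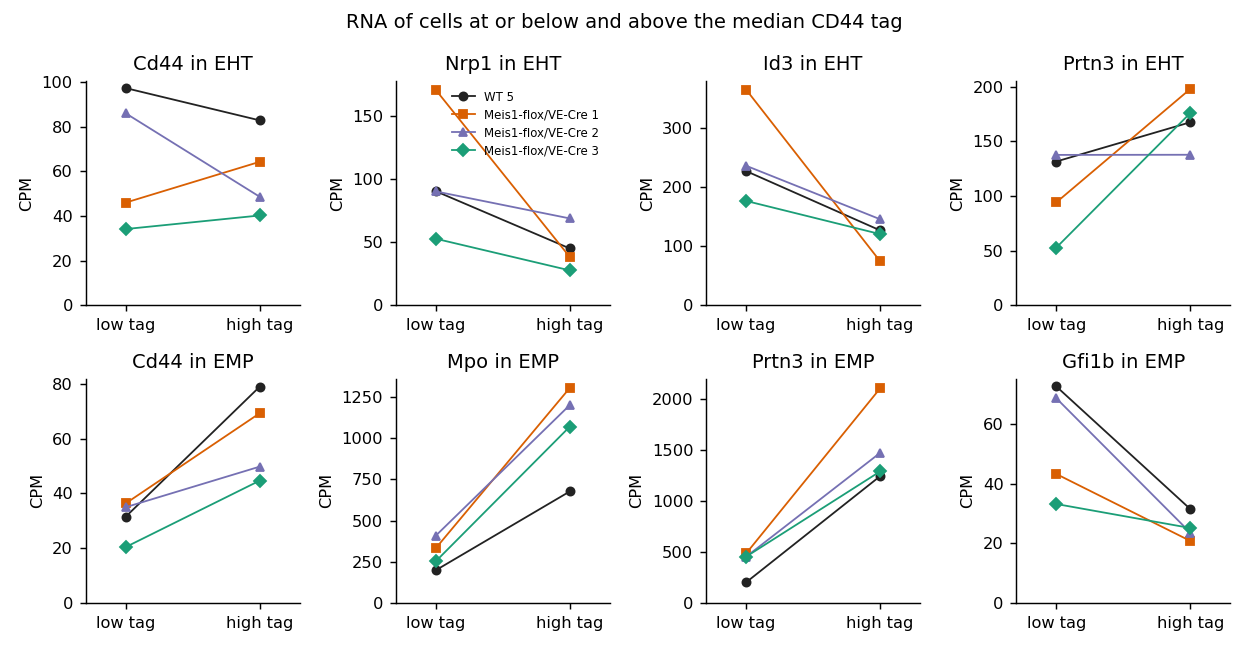
CPM of Cd44, Nrp1, Id3 and Prtn3 in EHT (upper row) and of Cd44, Mpo, Prtn3 and Gfi1b in EMP (lower row), in cells at or below (low tag) and above (high tag) the median CD44 tag of their library, with a line for each of the 4 libraries and vertical axes from 0. The lines for Cd44 go both ways in EHT and up in every library in EMP, where high-tag cells lie at 44.6 to 78.9 CPM.

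High-tag EMP cells had more RNA of granulocyte genes, with 5 of 5 tested markers higher. Prtn3 was 3.89-fold higher (1546 against 405 CPM) and Mpo, the peroxidase of neutrophil granules, rose by 1.83 on the log2 scale (1082 against 303 CPM), and their UMIs were found in 205 of 233 high-tag cells each, against 149 and 164 of 235 low-tag cells. Elane rose by 4.196, S100a8 by 6.90 and S100a9 by 8.59, which rest on few cells. The 1823 S100a8 counts of high-tag cells lay in 28 cells, against 10 counts in 10 low-tag cells, and 96.9% of the former were in 10 cells. Among the largest falls were Ctla2a (-1.50), Gm15915 (-1.34), the thrombin receptor F2r (-1.13) and Gfi1b, a factor of erythroid and megakaryocyte cells (-1.09).

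Markers of other cells also moved with the tag in EMP. The macrophage marker Csf1r was higher by 1.02 (1 of 3 tested) and the myeloid factor Spi1 by 0.71. The endothelial genes Emcn and Cldn5 were higher by 1.24 and 1.05, as 2 of 6 tested (for Cldn5, 20.6 against 10.1 CPM). Of 4 erythroid markers tested 2 were higher, Hba-a1 and the globin gene Hba-x, the latter by 2.44 in 3 of 4 libraries. Of 8 hematopoietic markers tested Coro1a was higher and Itga2b was lower by 0.59 (log2 change -0.59), with a median of 0.17 for the list. Of 6 cell division markers 2 were higher, Cdk1 and Ccnb1. Of the hyaluronan and CD44 list, 4 of 20 tested were higher: Tmem2, Cd44, Ezr and Hmmr. High-tag EMP cells had medians of 16652 to 26744 UMIs against 11862 to 19098.5 in low-tag cells, and the part of depth and of the other cells in these differences was not tested. Without WT 5, Cd44 differed by 0.83 (edgeR adjusted p = 0.029).

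The vEC clusters had tag counts near the floor, with medians of 2 to 5 per cell, and their high-tag and low-tag cells differed in few genes: 1 of 9149 in vEC_1 (0.0109%), 45 of 9245 in vEC_2 (0.487%), 6 of 9271 in vEC_3 (0.0647%) and 14 of 7745 in vEC_4 (0.181%). In vEC_2, Hoxa5 (0.53), Hmga2 (0.25) and Ccnd2 (0.24) were higher and Golga3 (-0.58), Gm42418 (-0.41) and Clec14a (-0.38) lower, as were the endothelial markers Emcn and Cldn5, 2 of 8 tested. In vEC_4, Fn1, which encodes fibronectin, rose by 0.55, and Gja4, an arterial connexin, by 1.72, as 1 of 3 arterial markers tested. Gja4 rests on few cells, with a UMI in 8 of 218, 7 of 230, 17 of 175 and 7 of 152 vEC_4 cells of WT 5 and Meis1-flox/VE-Cre 1 to 3. Lyve1 in vEC_3 was higher in high-tag cells by 0.52 (SE 0.18, edgeR unadjusted p = 0.0036, adjusted p = 0.530), higher in 2 of 4 libraries and lower in WT 5 (18.5 against 20.5 CPM) and Meis1-flox/VE-Cre 2 (13.2 against 14.4). It passed when cells were divided by the tag left after depth was removed (0.92, adjusted p = 0.0018).

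A limit for a clear tag was set in each library at the 99th percentile of its aEC cells, which was 19.4 tag counts in WT 5 and 23.7, 67.9 and 15.7 in Meis1-flox/VE-Cre 1 to 3. Nearly all EHT cells were above it, at 100%, 98.6%, 94.1% and 85.0% in the same order, and pre-HE cells were divided, at 50% (95% Clopper-Pearson interval 24.7 to 75.3), 75.9% (56.5 to 89.7), 27.3% (13.3 to 45.5) and 53.3% (26.6 to 78.7). The intervals cover counting error only. The mean difference between pre-HE and EHT was -42.8 percentage points, lower in 4 of 4 libraries (exact permutation p = 0.125, 0.25 adjusted over 6 comparisons). EMP were at 100%, 98.0%, 83.7% and 77.3%, Myeloid cells at 96.0% to 100%, and Megakaryocytes at 38.5% to 89.2%. Only 3, 2, 4 and 2 aEC cells lay above these limits. In Meis1-flox/VE-Cre 2, with the highest limit, the 90th percentile of aEC cells was 8 tag counts. The shares depend on the limit, and with the 95th percentile of aEC more pre-HE cells lay above it, as given at the end.

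**Figure D5:**
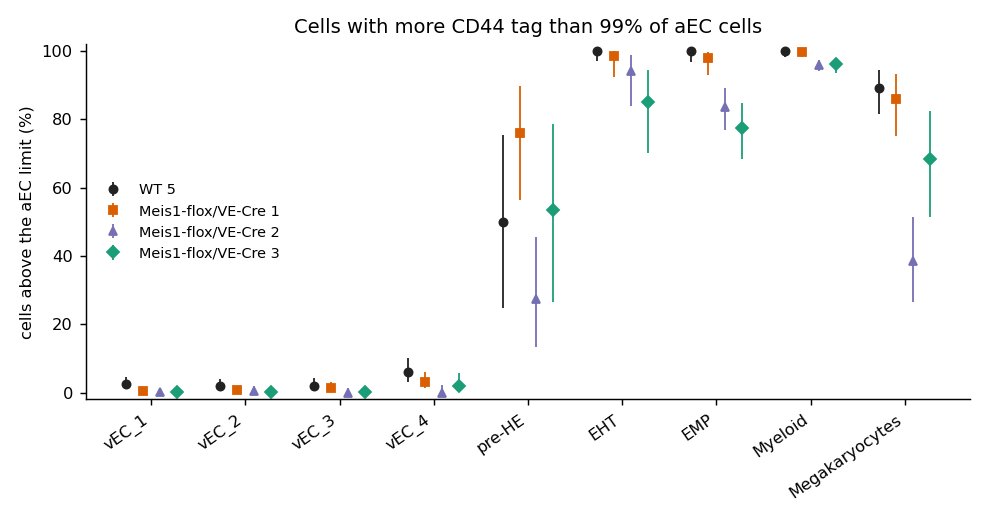
Percent of cells with more CD44 tag than 99% of the aEC cells of their library (vertical axis) for each cell type, with a point for each of the 4 libraries and bars for 95% Clopper-Pearson intervals. Pre-HE lies between 27.3% and 75.9%, below EHT in every library, and no vEC cluster exceeds 5.96%.

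Of 5363 vEC cells with a tag, 63 lay above the limit (1.17%), and none of these was called a doublet. The shares were 5.96% (3.21 to 9.98), 3.04%, 0% and 1.97% in vEC_4 of WT 5 and Meis1-flox/VE-Cre 1 to 3, and 0% to 2.62% in the other clusters, against 1.24% to 1.40% of aEC cells. WT 5 and Meis1-flox/VE-Cre 1 alone had enough such cells for a sum, and between these and the other vEC cells 30 of 11174 genes were called (0.268%), 26 higher and 4 lower. The sums were not matched for cluster. Above the limit vEC_4 gave 13 of 38 cells in WT 5 and 7 of 17 in Meis1-flox/VE-Cre 1. Among all vEC cells it gave 218 of 1350 and 230 of 1507. The part of cluster in these differences was not tested. Among the rises were Sat1 (1.10), Meis2 (1.08), Aes (0.92), Fn1 (0.92) and Peg3 (0.87), and 2 of 6 arterial markers, Gja5 and Gja4. Kcne3 (-1.48) and Clec1b (-0.58) were among the lower ones. Cd44 RNA differed by 2.18 with an SE of 1.82 (edgeR adjusted p = 1.00), Lyve1 by 0.97 (adjusted p = 0.336) and Hyal2 by -0.33.

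Gja5 and Runx1, the factor that sets off blood formation, were read in these cells after their values had been seen, and the counts are a description. Summed over libraries, vEC cells above the limit had 20.1 CPM of Gja5 against 0.0631 in the others, 14.0 against 0.899 CPM of Runx1, 3.497 against 0.679 of Cd44 and 32.4 against 13.9 of Lyve1. Of the 37 Lyve1 counts above the limit 31 lay in WT 5 (42.3 against 19.0 CPM), and Meis1-flox/VE-Cre 1 was level (11.6 against 11.2 CPM). A UMI of either gene was found in 13 of the 63 cells, 7 of 13 in vEC_4 of WT 5 and 4 of 7 in vEC_4 of Meis1-flox/VE-Cre 1. The pan-endothelial Cdh5 stood at 427 against 367 CPM and the blood marker Ptprc at 1.75 against 0.536, and Spn had 0 counts above the limit. The values above the limit rest on 2 counts for Ptprc and 4 for Cd44, near the floor. Those of Gja5 and Runx1 rest on 23 and 16 counts in 7 cells each. Cells above the limit had a median of 15984 UMIs against 10975. The sums over libraries were not matched for cluster either, and the Gja5 UMIs above the limit lay in vEC_4 cells only.

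The spread of the tag among cells of a type, as the SD of log2(tag + 1), was 0.99, 0.88, 0.80 and 1.38 in EHT and 0.97, 1.40, 1.16 and 1.52 in EMP. The mean difference was -0.25 (SD 0.24, n = 4, exact permutation p = 0.25, 0.536 adjusted over 15 comparisons). In the vEC clusters the SD was 0.87 to 1.20 and in pre-HE 2.16, 1.63, 1.67 and 1.27, wider than in EHT, EMP and the vEC clusters in 3 of 4 libraries. The pre-HE values rest on 16, 29, 33 and 15 cells and depend on the measure. As coefficients of variation they were 0.96, 0.83, 0.91 and 0.77, below vEC_1 at 1.39, 0.86, 3.00 and 1.15. Of the 15 pairs among EHT, EMP and the vEC clusters, none had an exact permutation p below 0.25. The vEC tag counts lie near the floor, where counting error adds more to this SD, so the SDs of vEC and blood clusters are not like measures. The variance of the tag over its mean averaged 54.5 in EHT, 127 in EMP and 4.97 (vEC_3) to 26.9 (vEC_4) in the vEC clusters. In tag counts, EHT cells ranged from 32 to 773 in WT 5 and EMP cells from 26 to 1768.

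Between genotypes the tag could be compared only as 1 library against 3, where the smallest exact permutation p is 0.25. Relative to aEC of the same library, the mean log2 difference of Meis1-flox/VE-Cre from WT 5 was 0.58 in pre-HE (exact permutation p = 0.25), -0.20 in EHT (0.5), -0.59 in EMP (0.5), -0.12 in Myeloid cells (0.75) and -0.15 in Megakaryocytes (1.00). Without reference to aEC the pre-HE difference was -0.01. Over the 40 sums with a tag, the RNA most like the tag was that of Ptpre, a phosphatase of blood cells (Pearson's r 0.936), Rac2 (0.935) and Atp6v0b (0.923), and Cd44 came 6th at 0.916.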

How the data were processed

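The authors deposited raw UMI counts, without normalization, of genes and antibody tags per cell, and a table of samples and cell type names. Per the submitters' processing notes, Cell Ranger 3.0.2 and mm10 were used, and the authors had kept cells with over 2000 genes and under 10% mitochondrial counts. All cell names were mapped by these deposited tables. The members and lists were chosen with earlier results of these data known.

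Sums of raw counts over the cells of a type in a library, of 10 cells or more, were tested in R 4.3.3 with edgeR 4.0.16 (TMM, filterByExpr, quasi-likelihood F test, two-sided, Benjamini-Hochberg over all genes, adjusted p under 0.1). Libraries were blocks within WT and between high-tag and low-tag cells, and genotypes were compared unblocked, 5 libraries against 3. CPM values given per library were not TMM-adjusted. Tags were compared as log2 ratios of mean raw tag counts within libraries by exact sign-flip permutation, two-sided, with 0.05 as the threshold. In shares of cells with a UMI, cells were thinned to 5000 UMIs and 13 of 77 Meis1-flox/VE-Cre pre-HE cells, which were shallower, were left out. A count of 0 was taken to allow 3 counts. Scrublet (scanpy 1.11.5, 30 principal components) called 83 of 15168 cells doublets (0.547%), which were kept and left out in an alternative. Tests were checked on simulated counts. Other steps used Python 3.11.15 with scipy 1.17.1, pandas 2.3.3, numpy 2.4.6 and matplotlib 3.10.9.

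Named genes are the members, at most 6 called genes of the hyaluronan list per comparison, the 5 genes most like a member (Pearson's r of log2(CPM + 1), mean CPM of at least 10), and, for high-tag against low-tag cells, called genes of the marker lists and the 5 largest rises and falls among called genes with 1 direction in every library and a mean of log2 CPM not below 5. Megakaryocyte, mesenchyme, venous, erythroid and lymphatic lists were read only as levels or in those comparisons. Some genes that this rule selects are not reported here. Alternatives were RLE normalization, DESeq2 1.42.0, an adjusted p under 0.05, no filter, sums of at least 20 cells, doublets left out, thinning, other blocks and each library left out. For tags they were medians, centred log ratios, other divisions of cells and other limits. Tag counts per RNA UMI, tag per Cd44 UMI and the leave-one-out of tag per RNA were chosen after seeing the data.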

Additional observations from a re-analysis of the deposited data

Results flagged for a closer look

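For each member, the highest and lowest library of 71 groups of 4 or 5 libraries were compared with the rest of their group, and 5 values lay far from the others. Chance gives such a value in about 1 in 20 groups. Has2 in pre-HE stood at 42.4 CPM in WT 1, where the other WT libraries had 4.67 to 11.9. Lyve1 in EMP stood at 6.78 CPM in WT 3, where the others had 0 to 0.233. The mean CD44 tag per cell of Meis1-flox/VE-Cre 3 was 1.99 in vEC_1, against 4.29 to 4.72 in the other 3 libraries with a tag, and 2.23 in vEC_2, against 5.19 to 5.49. In WT 5, 2.62% of vEC_1 cells lay above the tag limit of aEC, against 0.207% to 0.438% in the others.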

How the results depend on the processing

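Of the values that answer a comparison, 210 counted as unchanged under an alternative other than leaving out a library, 51 moved and 32 changed direction. All 32 were in comparisons of the tag. For ratios and spreads of the tag, unchanged means only that the direction was kept, since their size was not compared. Tags were counted in 4 libraries and pre-HE rests on 11 to 87 cells per library, so that no test of the tag could pass 0.05 and differences within pre-HE were measured with wide errors. Low Has2 counts limit it to a description. The causes of the changes below were not tested.

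Over the 10 comparisons of cell types edgeR made 53647 calls, which became 34707 in the Meis1-flox/VE-Cre libraries and 24659 after thinning. In those libraries Cd44 from pre-HE to EHT was -0.62, Lyve1 in vEC_3 0.38 and Hyal2 from aEC to pre-HE 0.61, the last no longer past the threshold. Hyal2 in Megakaryocytes against EMP was 0.00308 with RLE, 0.0614 without doublets and 0.0502 with no replicate block. Leaving out 1 library gave -0.43 to 0.33 for the latter, -0.20 to 0.00969 for Cd44 in vEC_1 and -0.0789 to 0.0160 for Lyve1 in vEC_3.

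Between genotypes 856 calls over all cell types became 1489 with DESeq2, 322 with WT 5 as the only WT library, 373 at an adjusted p under 0.05, 463 after thinning, 40 with median UMIs as a covariate and 2814 with no filter. Leaving out 1 library gave 101 (without Meis1-flox/VE-Cre 1) to 6152 (without WT 5), with 344 and 252 without Meis1-flox/VE-Cre 2 and 3, and 465, 473 and 456 without WT 1, 2 and 4. With the replicate number as a block in replicates 1 to 3 there were 8394 calls, 2 of them of members: Hyal2 in aEC (-0.44, edgeR adjusted p = 0.061) and Lyve1 in vEC_4 (-0.44, adjusted p = 0.036). The numbers do not pair the libraries by the labels, and same-numbered libraries correlated in their deviations by -0.199 to 0.395, over 0.1 in 16 of 30 cases, with 24 of 30 libraries closest to their own number.

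Between high-tag and low-tag EHT cells 54 calls became 2 with DESeq2, 27 at 0.05, 17 after thinning, 108 without doublets, 90 between the top and the bottom quartile, 99 with no filter, 8 with no replicate block and 89 when divided on the tag left after depth was removed, and 9 (without Meis1-flox/VE-Cre 1) to 62 without 1 library. In EMP 406 became 116, 257 and 121 in the first 3 of these, 646 with no filter, 98 with no replicate block, 677 on the tag left after depth, and 210 to 481 without 1 library (210 and 257 without Meis1-flox/VE-Cre 1 and 2). Over the 4 vEC clusters 66 became 2, 37 and 24 in the same 3, 1 with no replicate block and 29 on the tag left after depth, and 33 to 57 without 1 library (33 without Meis1-flox/VE-Cre 1, 42 without WT 5). For vEC cells above the aEC limit 30 became 10 with DESeq2 and 17 after thinning. Members were called in 2 cases, not 1, between quartiles and on the tag left after depth. Cd44 between high-tag and low-tag EHT cells was 0.29 on the tag left after depth and -0.27 to 0.0356 without 1 library.

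As centred log ratios, the tag differed by -0.19 from EHT to EMP, 0.0852 for aEC against vEC, and 0.0420, 0.0316, -0.0253 and -0.0857 in vEC_1 to vEC_4. Per RNA UMI, which was chosen after seeing the data, it differed by -0.26 from EHT to EMP, 0.21 for aEC against vEC and -0.0363 in vEC_3, and as medians by 0.0805 in vEC_2 and -0.0805 in vEC_4. In vEC_2 it was -0.104 to 0.0433 without 1 library. Between genotypes with no reference the tag differed by -0.0145 in pre-HE and -0.50, -0.37 and -0.47 in vEC_1 to vEC_3, as centred log ratios by 0.10 in Megakaryocytes and -0.0834, -0.0603 and -0.0836 in vEC_1 to vEC_3, and as medians by -0.0196 in vEC_2. Without 1 library it was -0.249 to 0.0127 in Myeloid cells and -0.442 to 0.0161 in vEC_4. In EHT the ratio of tag with and without a Cd44 UMI was 0.0367 with no thinning. Tag per Cd44 RNA in Megakaryocytes against EMP was -0.0263 to 0.256 without 1 library.

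As coefficients of variation, the spread differed by -0.992, -0.748 and -0.390 for EHT against vEC_1 to vEC_3, by -0.782, -0.538, -0.180 and -1.12 for EMP against vEC_1 to vEC_4, by 0.244 for vEC_1 against vEC_2 and by 0.602 for vEC_1 against vEC_3, the last pair 0.0259 and 0.0371 after depth was removed. Without 1 library the spread of EHT differed by -0.0863 to 0.115, -0.0980 to 0.149, -0.101 to 0.135 and -0.196 to 0.00724 from vEC_1 to vEC_4, that of vEC_1 by -0.0224 to 0.0338 from vEC_2 and -0.0298 to 0.0191 from vEC_3, and that of vEC_2 by -0.0146 to 0.0309 from vEC_3. With the 95th percentile of aEC as the limit, 78.5% of pre-HE, 95.4% of Megakaryocytes and 4.42%, 6.47%, 9.55% and 8.64% of vEC_1 to vEC_4 lay above it. With thinning to 3000 UMIs a Cd44 UMI was found in 13.5% of pre-HE, 19.9% of EHT, 14.4% of EMP and 15.3% of Myeloid cells, and a Lyve1 UMI in 18.2% of vEC_4 cells. With no thinning these were 45.4%, 82.5%, 82.0%, 77.4% and 40.6%, with 1.68% for Cd44 in aEC and 75.01% for Hyal2 in pre-HE.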
